A study of Mus musculus with 7 samples.

Results

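The genes described here are 40 mouse cell cycle and proliferation genes, chosen by name, with earlier results of these data already known. By role, 11 act in DNA replication in S phase, 21 act in mitosis, 5 are G1 genes (4 cyclins and the transcription factor E2f1) and 3 encode inhibitors of cyclin-dependent kinases. Each symbol was found on 1 row of the 53379 gene rows of the count table. RNA was sequenced from tumour-associated macrophages sorted as CD45, CD11b and F4/80 positive from MC38 tumours, a transplanted mouse colon carcinoma line, on day 21 after implantation. The 7 libraries came from separately numbered C57BL/6J mice, 4 Gpr65-wild-type and 3 Gpr65-knockout. All 7 mice were fed a high-fat diet and carried the tumour, so no library came from another diet or from tumour-free tissue. Gpr65 encodes a proton-sensing receptor, and the comparison asks how its loss bears on RNA levels in these macrophages. How the knockout allele was made, and the age of the mice, are not stated in the labels.

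Dividing cells make RNA of different cell cycle genes in waves. D-type cyclins and cyclin E drive the kinases that inactivate the retinoblastoma protein, which frees E2F factors to transcribe replication genes such as the Mcm helicase subunits. Mitotic genes follow later, under a complex that binds CHR elements together with NF-Y at CCAAT boxes, and p53 can silence many of them through the kinase inhibitor encoded by Cdkn1a. Tumour macrophages are mostly renewed from blood monocytes, and some divide within the tumour.

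Promoters of 2 mitotic and 2 replication genes are printed to show these motifs side by side. RefSeq promoter sequence of build GRCm38.p6 was matched by symbol for 32 of the 40 genes. The sequences run 5′ to 3′ along the gene's own strand over the 250 bases before the RefSeq start, with motif matches in capitals. The motifs searched, on both strands, were the CCAAT box (CCAAT or ATTGG), the CHR element (TTTGAA or TTCAAA) and the E2F site (TTTGGCGC, TTTCCCGC, TTTCGCGC, TTTGCCGC or their reverse complements GCGCCAAA, GCGGGAAA, GCGCGAAA and GCGGCAAA). Ccnb2 (cyclin B2, chr9:70421555-70421804, minus strand) and Mki67 (the proliferation marker Ki-67, chr7:135716380-135716629, minus strand) are mitotic. Mcm5 (chr8:75109259-75109508, plus strand) and Mcm6 (chr1:128359706-128359955, minus strand) encode subunits of the replicative helicase. These 4 were picked after their matches were seen.
Ccnb2: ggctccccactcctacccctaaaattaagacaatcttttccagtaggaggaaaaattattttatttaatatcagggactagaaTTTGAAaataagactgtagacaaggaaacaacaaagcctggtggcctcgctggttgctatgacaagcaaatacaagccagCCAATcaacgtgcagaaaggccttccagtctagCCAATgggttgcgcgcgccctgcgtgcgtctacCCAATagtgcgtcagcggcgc
Mki67: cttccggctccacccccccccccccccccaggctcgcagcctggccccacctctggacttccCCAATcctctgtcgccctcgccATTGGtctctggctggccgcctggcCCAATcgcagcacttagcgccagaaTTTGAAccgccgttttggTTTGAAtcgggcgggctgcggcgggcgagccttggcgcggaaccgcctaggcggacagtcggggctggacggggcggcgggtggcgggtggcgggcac
Mcm5: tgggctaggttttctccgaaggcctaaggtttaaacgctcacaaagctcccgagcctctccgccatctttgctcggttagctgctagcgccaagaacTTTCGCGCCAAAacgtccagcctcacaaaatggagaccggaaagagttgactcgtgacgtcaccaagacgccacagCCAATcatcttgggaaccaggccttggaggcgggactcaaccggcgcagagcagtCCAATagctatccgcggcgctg
Mcm6: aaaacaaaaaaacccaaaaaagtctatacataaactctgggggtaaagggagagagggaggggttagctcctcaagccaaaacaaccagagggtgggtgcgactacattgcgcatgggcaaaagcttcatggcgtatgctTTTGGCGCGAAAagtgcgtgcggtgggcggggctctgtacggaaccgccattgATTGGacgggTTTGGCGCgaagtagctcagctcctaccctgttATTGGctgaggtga

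Ccnb2 held 3 CCAAT boxes, at 87, 54 and 21 bases before the start, and 1 CHR element. Mki67 held 3 CCAAT boxes and 2 CHR elements. Mcm5 and Mcm6 held E2F letters in place of CHR letters, and the TTTCGCGC and GCGCCAAA matches of Mcm5 overlap each other, as do TTTGGCGC and GCGCGAAA of Mcm6 at 110 and 106 bases before its start. Over the matched genes, a CCAAT box stood in 15 of 17 mitotic and 8 of 9 S-phase promoters, against 37.5% of the 27025 promoters of the table. CHR letters stood in 7 of 17 mitotic promoters (41.2%) and 1 of 9 S-phase promoters, against 18.3% of all. E2F letters stood in 1 of 17 mitotic promoters and 3 of 9 S-phase promoters (33.3%), against 2.16% of all. The window matters for the CHR letters: with the 50 bases after the start added, 12 of 17 mitotic promoters (70.6%) held them against 20.2% of all, and E2F letters stood in 4 of 9 S-phase promoters against 2.6%. Birc5, Ccne1, Cdkn1a, Cdkn2c, E2f1, Nusap1 and Tyms held none of the 3 motifs in the 250 bases. A match is a description of these letters, not a bound site.

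Library totals ran from 22449772 to 30483733 counts. Gpr65 itself stood at 90.9 ± 19.4 CPM (counts scaled to library size and TMM factor, SD, n = 4) in wild-type and 0.921 ± 0.215 CPM (SD, n = 3) in knockout libraries, a log2 fold change of -6.62 (SE 0.30, edgeR quasi-likelihood test, adjusted p = 8e-05), so the genotype labels held in every library. The macrophage markers Ptprc, Itgam, Adgre1, Csf1r and Cd68, among which are the genes of the 3 sorted proteins, were present in all 7 libraries, and Csf1r ranged from 1805 to 3264 CPM. A pair of libraries stood apart in their voom quality weights. Knockout 1 lacked any count for 940 of the tested genes, where the others lacked 51 to 281, and got the lowest voom quality weight (0.276). Wild-type 2 had the next lowest weight (0.532) and summed monocyte markers of 4185 CPM, against 364 to 1415 CPM elsewhere, 3241 CPM of them from Chil3. Its 6 neutrophil markers summed to 92.9 CPM against at most 29.7 CPM elsewhere, with Ly6g at 0 in all 7 libraries. Its 5 dendritic cell markers summed to 208 CPM against at most 74 CPM, 169.5 CPM of them from Ccr7. Of the other dendritic cell markers, Flt3 and Zbtb46 were also highest in wild-type 2, Clec9a was not, and Xcr1 was lowest there (4.32 CPM). Knockout 2 had the highest summed macrophage markers, given below, and the lowest TMM factor (0.807).

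No cell cycle gene was called different between the genotypes. Of the 40 genes, 39 passed the filter on low counts, and 0 of these 39 reached an adjusted p under 0.05 in edgeR's quasi-likelihood test, against 0.037% of all 16234 genes tested. At an unadjusted p under 0.05 the count was also 0 of 39, against 5.37% of all genes tested, while their p-values ran from 0.0848 to 0.982. In no gene of the list did the CPM of the 4 wild-type and 3 knockout libraries separate, 0 of 39 against 6.12% of all genes tested. DESeq2 also called 0 of the 39, against 120 of the 28892 genes in its own fit. At an unadjusted p under 0.05 it had 0 of the 39, against 4.78% of those genes. A missed threshold does not show equal levels: the 95% interval of the fold change lay within 2-fold in both directions for 21 of the 39 genes, and for 8460 of all 16234. The kinesin gene Kif11, whose motor pushes spindle poles apart, had 0 counts in all 7 libraries and was not tested. The other mitotic genes were well above 0. Atad2 and Skp2, of the wider lists given below, also had 0 counts in all 7 libraries.

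**Figure D1:**
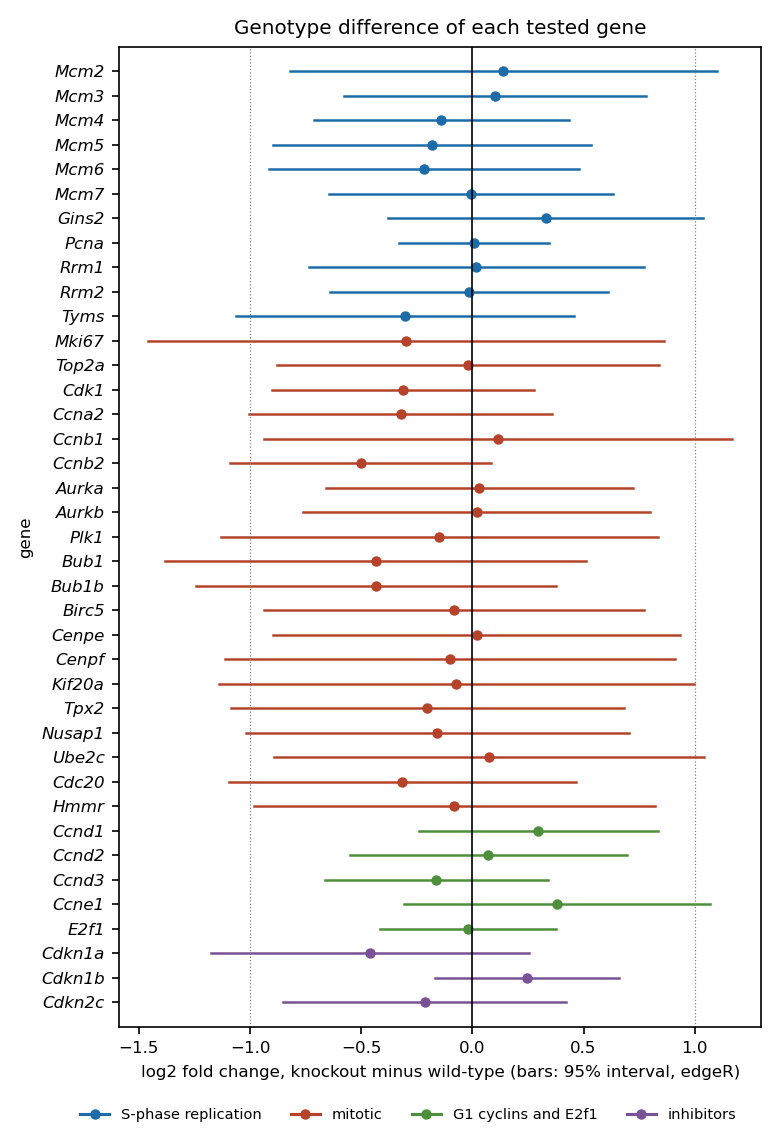
Log2 fold change (knockout minus wild-type, horizontal axis) of the 39 tested genes (rows), coloured by role, with 95% intervals from edgeR as bars and dotted lines at 2-fold. Every interval crosses 0, and those of 21 genes stay between the dotted lines.

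Levels of these genes varied between mice of the same genotype. The ratios of highest to lowest library span both genotypes, so they also include any difference between the genotypes. Over the 39 genes the highest library was a median of 2.66 times the lowest, from 1.23 times for Pcna to 4.95 times for Mki67, against a median of 2.21 times over all genes tested. For the mitotic genes that median was 3.11 times and for the S-phase genes 2.54 times. The mean log2 CPM of the 20 tested mitotic genes in the wild-type mice, in the order of their numbers, was 6.24, 4.67, 5.65 and 5.57, while the knockout mice had 6.00, 4.95 and 5.24. Wild-type 1 and knockout 1 were thus high and wild-type 2 and knockout 2 low, and the group means of 5.53 ± 0.65 (SD, n = 4) and 5.40 ± 0.54 (SD, n = 3) lay closer than either SD. The 11 S-phase genes ran at 6.53, 5.42, 6.30 and 6.15 in the wild-type mice and 6.48, 5.99 and 5.84 in the knockout mice, with group means of 6.10 ± 0.48 (SD, n = 4) and 6.10 ± 0.34 (SD, n = 3). In bulk RNA, fewer dividing cells and less of these RNAs per dividing cell cannot be told apart.

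**Figure D2:**
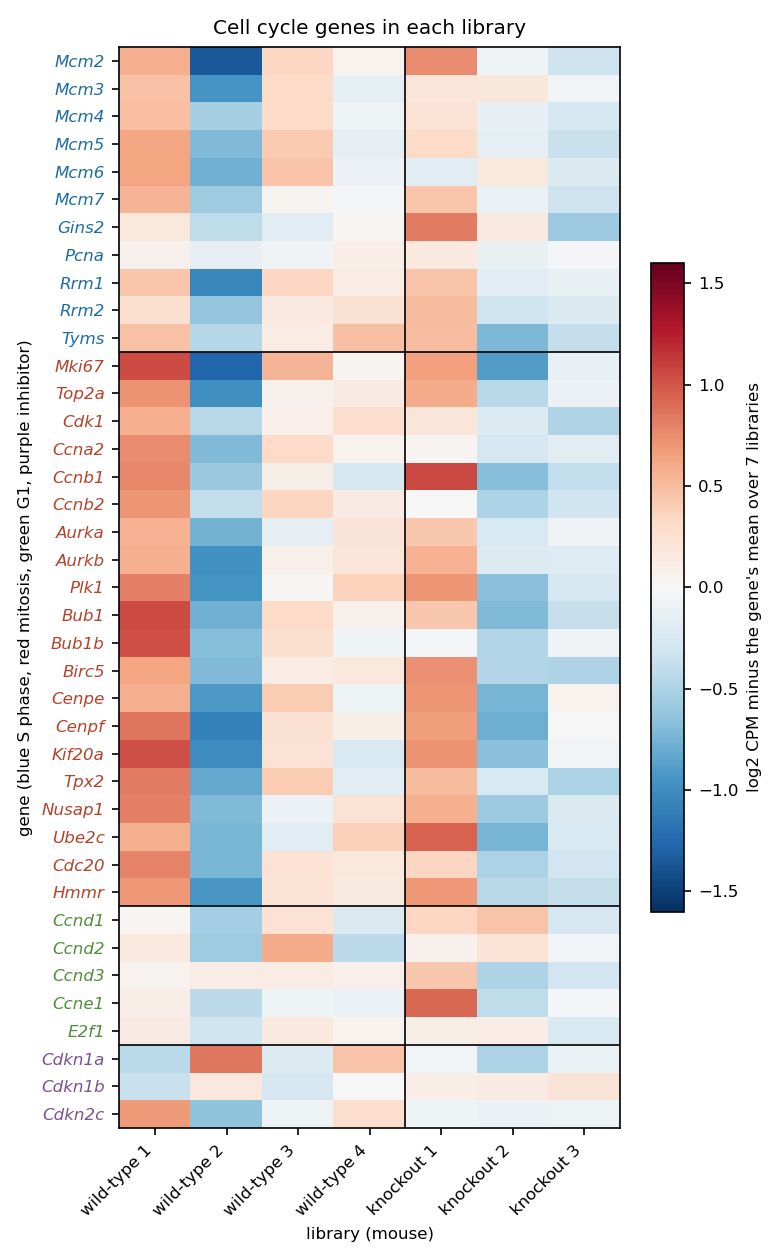
Each gene's log2 CPM minus its own mean over the 7 libraries (colour; red above, blue below) for the 39 tested genes (rows, grouped by role) in each library (columns, a vertical line parting the genotypes). Wild-type 1 and knockout 1 are red and wild-type 2 is blue down most S-phase and mitotic rows, while Cdkn1a is blue in wild-type 1 and red in wild-type 2.

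The order of the mice was nearly the same from one mitotic gene to the next. Wild-type 1 was the highest library for 15 of the 20 tested mitotic genes and knockout 1 for the other 5, while wild-type 2 was the lowest for 16, knockout 2 for 3 and knockout 3 for 1. Wild-type 1 and knockout 1 together formed the highest pair in 16 of 20, against 5.86% of all genes tested, and wild-type 2 and knockout 2 the lowest pair in 17 of 20, against 7.19%. In 13 of the 20 mitotic genes all 3 knockout values lay inside the wild-type range, against 20.1% of all genes tested. These counts of order were chosen after the values were seen, and genes that share a library are not independent of one another. Among the S-phase genes, wild-type 1 and knockout 1 were the highest pair in 5 of 11, and wild-type 2 was the lowest library in 9 of 11, against 17.9% of all genes tested. Whether the groups of genes differ in these orders was not tested.

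**Figure D3:**
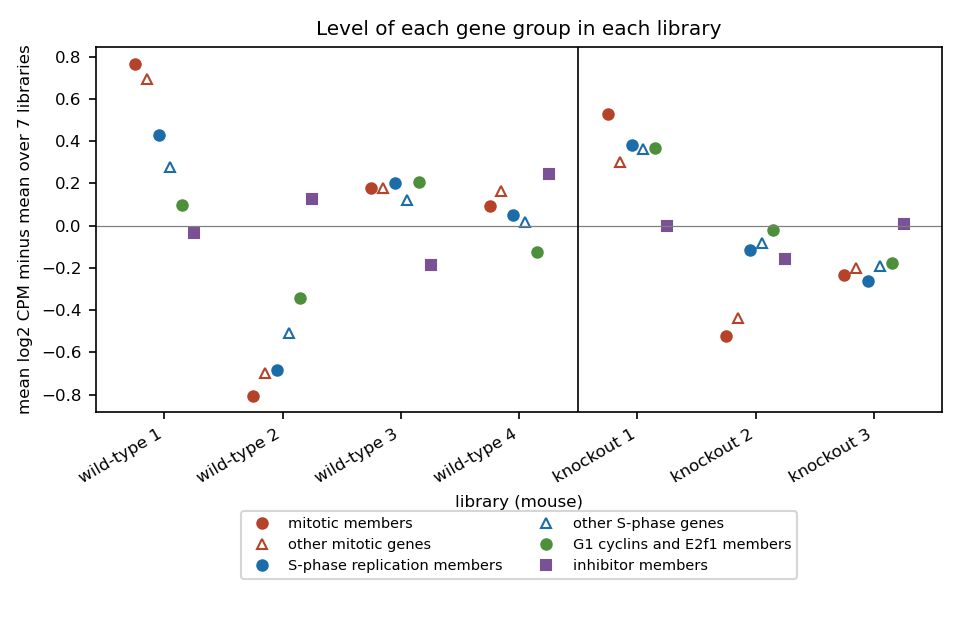
Mean log2 CPM of each gene group in a library minus its mean over the 7 libraries (vertical axis) for each mouse (horizontal axis), with filled symbols for the 40-gene set by role and open triangles for wider lists of S-phase and mitotic genes. The mitotic points lie above 0 in wild-type 1 and knockout 1 and below 0 in wild-type 2 and knockout 2, and the inhibitors do not follow them.

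Wild-type 2, the lowest library for most of these genes, also had the highest marker sums for monocytes, neutrophils and dendritic cells. Knockout 1, high for most of these genes, was the one with many genes at 0. Of the 11 marker lists, the macrophage list summed to 46540 CPM in knockout 2 and 23330 to 29100 CPM in the other 6 libraries. The T cell list summed to 470 CPM in knockout 3 and 20.7 to 105 CPM in the other 6 libraries. The MC38 and epithelial list summed to 126 to 451 CPM in wild-type and 41.8 to 168 CPM in knockout libraries, nearly all from Cdh1, while Krt19, Krt20 and Cldn4 were each at 0 in 6 of 7 libraries. B cell and erythroid markers summed to under 2 CPM in every library. NK cell markers summed to 3.25 to 42.8 CPM, fibroblast markers to 37.5 to 320 CPM and endothelial markers to 31.7 to 165 CPM. The part of other cell types, of library quality or of tumour cell RNA in the levels of the cell cycle genes was not tested.

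Among mitotic genes, Mki67, whose protein coats chromosomes in mitosis (chr7:135689784-135716361), gave, in the order of the mouse numbers, 293, 59.1, 206 and 146 CPM for the wild-type and 223, 76.4 and 130 CPM for the knockout mice. The lowest and the highest of the 7 values were both wild-type, and the log2 fold change was -0.30 (SE 0.51, adjusted p = 1.00). Top2a, the topoisomerase that untangles sister DNA (chr11:98992943-99024189), had 256, 78.5, 162 and 170 CPM in wild-type and 234, 114 and 145 CPM in knockout mice. All 3 knockout values of Top2a again fell inside the wild-type range, with a log2 fold change of -0.02 (SE 0.38).

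Cdk1, the kinase that starts mitosis (chr10:69335146-69352938), had 81.8, 40.2, 57.9 and 65.8 CPM in wild-type and 62.4, 47 and 39.2 CPM in knockout mice. Its spread between mice was the smallest of the mitotic genes, 2.09 times, and its log2 fold change was -0.31 (SE 0.26), with -0.16 without wild-type 1, -0.17 without knockout 3 and -0.52 without knockout 1. Its cyclin partners did not share a sign: Ccnb1 had 28.2, 11, 17.6 and 13.9 CPM against 34.5, 10.3 and 12.6 CPM, a log2 fold change of 0.12 (SE 0.46). Knockout 1 was the highest library for Ccnb1, and the other 2 knockout mice were near the lowest wild-type mouse.

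Ccnb2, the second B-type cyclin (chr9:70407692-70421547), had the smallest p of the list. It stood at 83.5, 38.9, 65 and 56 CPM in wild-type and 51.5, 36.2 and 41 CPM in knockout mice, a log2 fold change of -0.50 (SE 0.26, 95% interval -1.09 to 0.08, edgeR adjusted p = 0.985). The low value of wild-type 2 kept the groups from separating, and without wild-type 1 the fold change was -0.33. Bub1b, a spindle checkpoint kinase (chr2:118598211-118641591), had 97.4, 29.9, 57.3 and 45.6 CPM in wild-type and 47.2, 34.5 and 46.1 CPM in knockout mice, a log2 fold change of -0.43 (SE 0.36). Here 1 wild-type mouse, number 1, was well above the other 6, and without it the value was -0.07.

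The remaining tested mitotic genes had log2 fold changes from -0.44 (Bub1, the checkpoint kinase partner of Bub1b) to 0.07 (Ube2c, a ubiquitin-conjugating enzyme of the anaphase-promoting complex). The Aurora kinases were close to 0, Aurka at 0.03 (SE 0.30) and Aurkb at 0.02 (SE 0.34), and so was the kinetochore motor Cenpe at 0.02 (SE 0.40). Plk1, the polo kinase of mitotic entry, was at -0.15 (SE 0.43), and Birc5, the survivin subunit of the chromosomal passenger complex, at -0.08 (SE 0.38). Ccna2, the cyclin A that spans S phase and mitosis, was at -0.32 (SE 0.30) and Cdc20, an activator of the anaphase-promoting complex, at -0.32 (SE 0.34). The spindle genes Tpx2, Nusap1, Hmmr and Kif20a were at -0.20, -0.16, -0.08 and -0.07, and the kinetochore gene Cenpf at -0.10, with SEs from 0.38 for Nusap1 to 0.47 for Kif20a. Kif20a and Cenpf were among the most variable genes of the list, with the highest library 4.11 and 3.84 times the lowest. Over all 20 tested mitotic genes, 5 had a positive and 15 a negative fold change, with a median of -0.13 against -0.0016 over all genes tested, and 7 had an interval within 2-fold.

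The S-phase genes showed no common direction. Of 11 tested, 5 had a positive and 6 a negative log2 fold change, with a median of -0.0067, and 8 had an interval within 2-fold. Mcm2, a helicase subunit (chr6:88883474-88898780), had 157, 41.4, 132 and 109 CPM in wild-type and 178, 101 and 83.7 CPM in knockout mice, with a log2 fold change of 0.14 (SE 0.42). Mcm5 (chr8:75109569-75128439) had 163, 64.2, 141 and 94.8 CPM against 129, 94.4 and 82.3 CPM, with a log2 fold change of -0.18 (SE 0.32). Both genes were lowest in wild-type 2, and they differed in which mouse was highest, knockout 1 for Mcm2 and wild-type 1 for Mcm5.

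Rrm2, the regulated subunit of ribonucleotide reductase (chr12:24708241-24714146), had 88.9, 48, 83.1 and 88.1 CPM in wild-type and 106, 59.7 and 63.5 CPM in knockout mice, with a log2 fold change of -0.01 (SE 0.28). Its wild-type mice were alike except for number 2. Pcna, the sliding clamp of DNA polymerases that also serves in repair (chr2:132249162-132253314), had 57.7, 49.9, 52.6 and 59.1 CPM in wild-type and 61.1, 50.6 and 53.5 CPM in knockout mice. It was the steadiest gene of the list, with a log2 fold change of 0.0065 (SE 0.15, 95% interval -0.33 to 0.34).

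The other S-phase genes ranged from -0.30 (SE 0.34) for Tyms, the thymidylate synthase, to 0.33 (SE 0.31) for Gins2, a subunit of the helicase complex whose highest value was 36.8 CPM in knockout 1. Between them lay Mcm6 at -0.22 (SE 0.31), Mcm4 at -0.14 (SE 0.25), Mcm7 at -0.0067 (SE 0.28), Rrm1, the large subunit of ribonucleotide reductase, at 0.02 (SE 0.33) and Mcm3 at 0.10 (SE 0.30). Exons of Gins2 overlap those of Gse1 on the opposite strand over 2758 bases, and no source used here says if the authors counted by strand, which makes its value uncertain; 12 of the 40 genes have some such overlap. Per kilobase of exon, Mcm3 held the largest share of the Mcm2 to Mcm7 sum in all 7 libraries, from 25.8% to 32.2%.

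**Figure D4:**
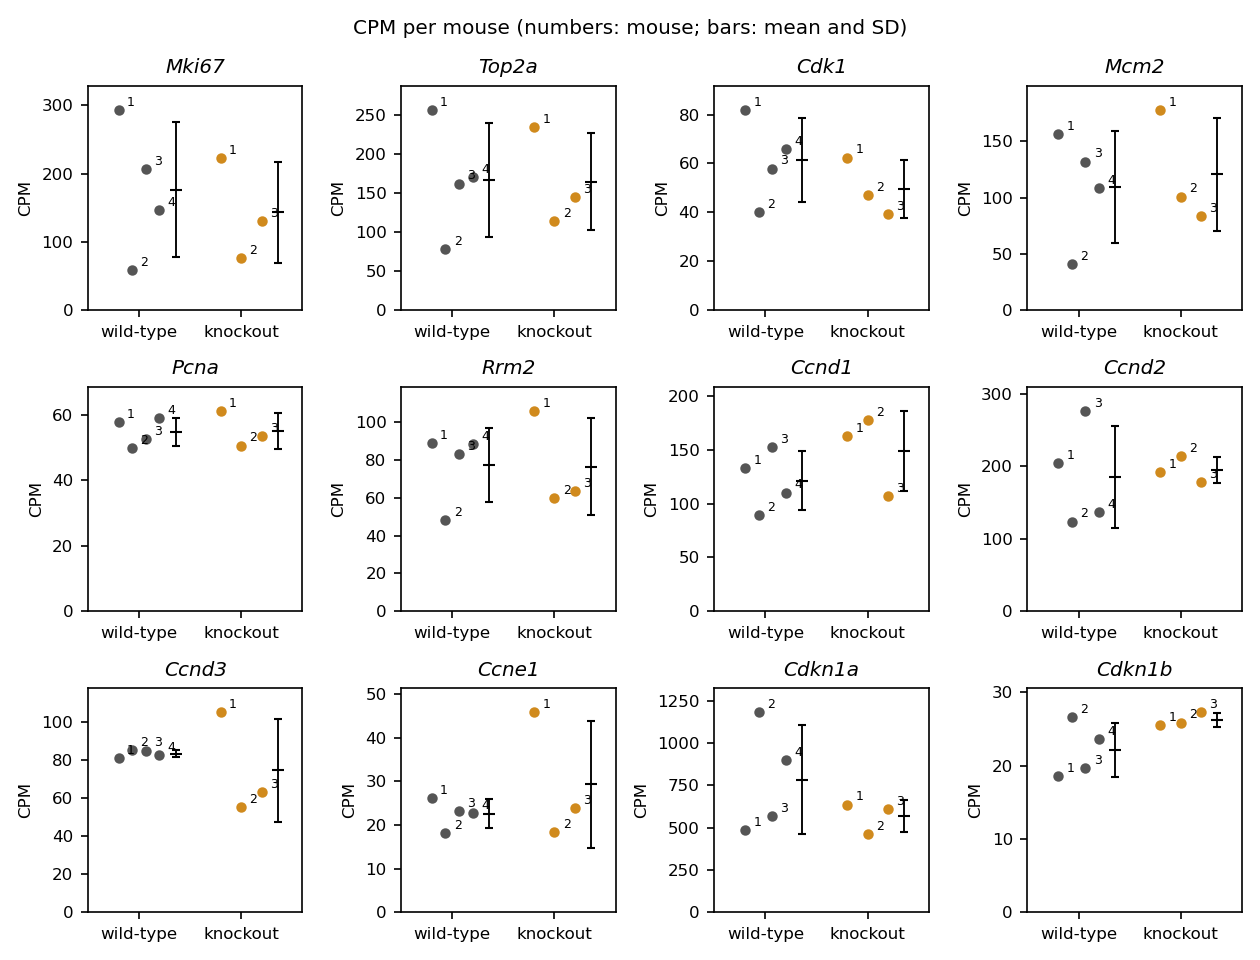
TMM-scaled CPM (vertical axis, starting at 0) of 12 genes in each wild-type (grey) and knockout (orange) mouse, numbered as in the text, with the group mean and SD (n = 4 and n = 3) as bars. The genotypes overlap in every panel. Mouse 2 is the lowest wild-type point for Mki67, Top2a, Cdk1, Mcm2, Pcna, Rrm2, Ccnd1, Ccnd2 and Ccne1. It is the highest wild-type point for Cdkn1a, Cdkn1b and, by a small margin, Ccnd3.

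Among the 5 G1 genes wild-type 2 was again the lowest library in 4, while the highest library was wild-type 3 for 2, knockout 1 for 2 and knockout 2 for 1. Ccnd1, a D-type cyclin induced by growth factors (chr7:144929931-144939925), had 133, 89.2, 153 and 110 CPM in wild-type and 162, 177 and 107 CPM in knockout mice, a log2 fold change of 0.30 (SE 0.24, adjusted p = 1.00 in edgeR). Knockout 1 and 2 were above every wild-type mouse and knockout 3 was not, and the value was 0.15 without knockout 2, 0.18 without wild-type 2 and 0.49 without knockout 3. Ccnd2 (chr6:127125162-127152193), the D-type cyclin with the widest spread, had 204, 124, 276 and 137 CPM against 192, 214 and 179 CPM, a log2 fold change of 0.07 (SE 0.28). Its 3 knockout values lay close together in the middle of the wild-type range.

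Ccnd3 (chr17:47505051-47599691) did the opposite: the wild-type mice were within 81.1, 85, 84.9 and 82.4 CPM, while the knockout mice had 105, 55.2 and 63 CPM. Knockout 1 was above and knockout 2 and 3 below all 4 wild-type values, so the groups differed in spread more than in level, with a log2 fold change of -0.16 (SE 0.22). The difference in spread was not tested. Per kilobase of exon the order in all 7 libraries was Ccnd1, Ccnd2, Ccnd3, with Ccnd1 at 45.3% to 56.5% of the sum of the 3 and Ccnd3 at 9.45% to 23.2%. The divisor joins all annotated exons of a gene (8.775 kb for Ccnd3), so this order depends on the annotation and need not be that of RNA molecules.

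Ccne1, the cyclin E that triggers S-phase entry (chr7:38097984-38107534), had 26.2, 18.1, 23.2 and 22.8 CPM in wild-type and 45.9, 18.4 and 23.9 CPM in knockout mice. The log2 fold change of 0.38 (SE 0.30) came with 1 high library, knockout 1, and without it the value was -0.10. E2f1, the factor that switches on replication genes (chr2:154559407-154569892), had 75, 54.7, 76.2 and 70.8 CPM against 73, 74 and 57.8 CPM, a log2 fold change of -0.02 (SE 0.18). Of the 5 G1 genes, 3 had a positive and 2 a negative fold change, with a median of 0.07.

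The inhibitors did not move as a group. Cdkn1a, the p53-induced inhibitor (chr17:29090976-29100727), was the most abundant gene of the list per kilobase of exon and had 486, 1182, 566 and 899 CPM in wild-type and 636, 461 and 610 CPM in knockout mice. Wild-type 2, the lowest mouse for most mitotic genes, was the highest for Cdkn1a, and wild-type 1, the highest for most of them, was the lowest wild-type mouse. The knockout mice did not show this opposition. For both Cdkn1a and the mean log2 CPM of the mitotic genes, knockout 1 was their highest, knockout 3 the next and knockout 2 the lowest. The log2 fold change of Cdkn1a was -0.46 (SE 0.32, adjusted p = 1.00), and -0.19 without wild-type 2.

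Cdkn1b, an inhibitor that holds cells in quiescence (chr6:134920401-134925513), had 18.6, 26.6, 19.7 and 23.6 CPM in wild-type and 25.5, 25.9 and 27.3 CPM in knockout mice, a log2 fold change of 0.24 (SE 0.18, edgeR adjusted p = 1.00). The knockout mice were above 3 of the 4 wild-type mice, and wild-type 2 lay among them, while without wild-type 1 the fold change was 0.15. Cdkn2c, an inhibitor of the cyclin D kinases (chr4:109660876-109667189), had 51.2, 20.6, 30.2 and 38.9 CPM against 30.6, 30.1 and 30.4 CPM. Its 3 knockout values were nearly equal and inside the wild-type range, with a log2 fold change of -0.21 (SE 0.28).

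Wider lists of the same pathway gave the same counts of calls. Of 34 other S-phase genes 33 were tested, 19 with a positive and 14 with a negative fold change, a median of 0.06 and 0 called. The smallest p-values among them belonged to Lig1, the ligase that joins Okazaki fragments, at -0.41 (SE 0.27), and Cdc6, which loads the helicase, at -0.36 (SE 0.25). All 40 other mitotic genes were tested, 6 with a positive and 34 with a negative fold change, a median of -0.26 and 0 called, and 2 of the 40 had an unadjusted p under 0.05, a share near the 5.37% of all genes tested. Ttk, the Mps1 checkpoint kinase, had 15.4, 3.4, 8.79 and 7.75 CPM in wild-type and 2.7, 2.4 and 4.89 CPM in knockout mice, a log2 fold change of -1.40 (SE 0.51, edgeR adjusted p = 0.846). Pttg1, securin, went the other way at 38.9, 56, 49 and 42.5 CPM against 52.4, 84.9 and 62 CPM, a log2 fold change of 0.51 (SE 0.21, edgeR adjusted p = 0.917). Of 39 other regulators 38 were tested, 20 with a positive and 18 with a negative fold change, a median of 0.04 and 0 called, with the smallest p for the antiproliferative gene Btg2 at -0.78 (SE 0.38) and the growth factor-induced Myc at -0.44 (SE 0.22).

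The sign of the median over the 20 tested mitotic genes rested on single mice. It was -0.13 with all 7 libraries, 0.12 without wild-type 1 and 0.11 without knockout 2, but -0.36 without wild-type 2 and -0.56 without knockout 1. No gene of the list was called under any of these, and the number with an unadjusted p under 0.05 was 0, 0, 2 and 3 of 39 in turn, against 4.45%, 4.35%, 5.09% and 9.8% of all genes tested in the same fits. The median of the 40 other mitotic genes did not change sign on leaving out 1 library. It ran from -0.50 without knockout 1 to -0.01 without wild-type 1, against -0.26 in the main fit, with no test. With wild-type 2 and knockout 1 both left out, a choice made after seeing the data, 0 of 39 genes were called (smallest adjusted p = 0.146 in edgeR), 22 of 39 had an unadjusted p under 0.05 against 12.1% of all genes tested, and the mitotic median was -0.77. These are the lowest wild-type and the highest knockout library for most of the same genes, so their joint removal parts the genotypes by its own construction. Both also stand apart in the weights, and in the marker sums or genes at 0, given above. Limma voom, which kept all 7 libraries and gave those 2 the lowest weights, called 0 of 39, with 5 at an unadjusted p under 0.05 against 9.83% of all genes tested, a mitotic median of -0.54 and an S-phase median of -0.32. With 4 and 3 mice, whether dividing macrophages differ between the genotypes was not resolved by these libraries.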

How the data were processed

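Macrophages sorted from MC38 tumours of 4 Gpr65-wild-type and 3 Gpr65-knockout mice on high-fat diet were sequenced from polyA RNA with a SMART-seq kit, per the labels' protocols. The authors deposited 1 table of raw read counts per gene, with 53379 rows. Per the submitters' processing notes, the build was GRCm38 and the named tools were DESeq2 1.24.0, BWA 0.7.12, FastQC 0.11.5 and cutadapt 1.15, with no role or order stated. The counting program and its use of strand are not given in the sources used here. Reads across exon junctions can be lost by an unspliced aligner, and this effect was not tested. Coordinates and exon lengths come from GENCODE M21 (GRCm38), which matched 53274 identifiers, and 16 rows without a symbol held 0.000338% of counts. Exon length is the union of all annotated exons of a gene, so values per kilobase depend on the annotation.

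Counts were fitted over all genes with edgeR 4.0.16 in R 4.3.3 (robust quasi-likelihood F test, TMM scaling, default filter on low counts, 16234 genes tested, Benjamini-Hochberg adjustment, threshold 0.05), with genotype as the only term. Fold changes are knockout minus wild-type, each SE was derived from the F statistic, and the prior count of log2 CPM was 2. Group medians and counts of order have no test. Alternatives, 18 in all, used other scalings, filters and thresholds, DESeq2 1.42.0, limma 3.58.1 voom, a block, and left-out libraries. P-values set the difference between the genotypes against the spread between mice, and do not test that spread.

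The 40 genes, the lists and the rule for named genes were chosen with earlier results of these data known. Values in every library are given for 16 preset genes and the 3 genes with the smallest p in each direction (18 in all). Of each wider list the 2 genes with the smallest p are named, and also Atad2 and Skp2, which had 0 counts. Order counts and printed promoters were picked after values were seen.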

Additional observations from a re-analysis of the deposited data

Results flagged for a closer look

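Among the 4 wild-type mice, Rrm2 was lowest in wild-type 2, at 48 CPM against 83.1 to 88.9 CPM in the other 3, and this gap was 0.858 of the range of the group, above Dixon's critical value for 4 samples. It was the only one of 55 sets of 4 values examined that passed, and about 1 in 20 sets would pass by chance. The same test was not run on the 3 knockout mice, at 106, 59.7 and 63.5 CPM.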

How the results depend on the processing

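Under every alternative 0 of the 39 tested genes were called, and Gpr65 kept its call, from -6.78 to -6.32. Genes called were 6 of the 16234 tested in the main fit. They were 11 of 29002 with no filter on low counts, 120 of 28892 with DESeq2 and 90 of 16724 with wild-type 2 and knockout 1 left out together. On leaving out 1 library they were 3 to 14, with 15796 to 17095 genes tested. Whether the mouse numbers pair the libraries was not settled. Same-numbered libraries had r = 0.11, -0.0026 and 0.12, against -0.16 to 0.040 for libraries of unlike number. Both mice numbered 1 were the highest pair in 16 of 20 mitotic genes, and both numbered 2 the lowest pair in 17 of 20. With the replicate block over mice 1 to 3 only 1 gene was called, which cannot decide on pairing with so few libraries. Leaving out 1 library moved the mitotic median between -0.56 and 0.12 and the S-phase median between -0.26 and 0.10, and leaving out wild-type 2 and knockout 1 together, chosen after seeing the data, gave -0.77 and -0.45. Of 306 refitted fold changes of the 18 named genes, 44 changed sign, in 12 genes, and 0 crossed the threshold. Those from leaving out 1 library ranged from -0.77 to 0.052 for Mki67, -0.37 to 0.25 for Top2a, -0.63 to 0.42 for Ccnb1, -0.26 to 0.35 for Mcm2, -0.40 to 0.013 for Mcm5, -0.087 to 0.061 for Pcna, -0.33 to 0.13 for Rrm2, -0.078 to 0.32 for Ccnd2, -0.51 to 0.0082 for Ccnd3, -0.10 to 0.62 for Ccne1, -0.12 to 0.088 for E2f1 and -0.40 to 0.0030 for Cdkn2c, and, with no change of sign, from -0.52 to -0.16 for Cdk1, -0.67 to -0.33 for Ccnb2, -0.65 to -0.070 for Bub1b, 0.15 to 0.49 for Ccnd1, -0.66 to -0.19 for Cdkn1a and 0.15 to 0.35 for Cdkn1b. Other changes of sign were 0.0040 for Top2a and 0.0011 for Rrm2 with upper-quartile scaling, and 0.074 for Top2a, 0.050 for Rrm2 and -0.10 for Ccnb1 with the replicate block. With total counts only, which moved the median of all genes to -0.11, Pcna was -0.089 and Ccnd2 -0.061, and with no filter Pcna was -0.0066. With voom, Ccnb1 was -0.54, Mcm2 -0.33, Pcna -0.053, Ccnd2 -0.099 and Ccne1 -0.027, and with both libraries left out they were -0.80, -0.52, -0.12, -0.068 and -0.19. The split of positive against negative fold changes over the 39 genes was 14 to 25, and was 7 to 32 with total counts only, 2 to 37 with voom and with both libraries left out, 28 to 11 without wild-type 1 and 4 to 35 without wild-type 2 or without knockout 1. The cause of these changes was not tested. Library totals were 22449772 counts or more, and what depth or library quality limits was not tested.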
